A study of Homo sapiens with 4 samples.

Results

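MET, the gene of the hepatocyte growth factor (HGF) receptor, and 9 genes that lie beside it on the long arm of chromosome 7 were examined in lung cancer cells grown attached to plastic or as floating spheroids. The 10 genes, in chromosome order, were TFEC, TES, CAV2, CAV1, MET, CAPZA2, ST7, WNT2, ASZ1 and CFTR, taken by name from the 43622 genes of each library's deposited table. Their transcript levels in these same libraries had prompted the choice, so every value is a description of 4 libraries and no test was made. Of the 10 genes, 7 passed the filter on low read counts that kept 15273 genes, and TFEC, WNT2 and ASZ1 did not.

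The libraries came from 2 lung cancer lines, A549 and H1993, each as 1 adherent culture and 1 spheroid culture, with no further treatment named for these samples. Values given for all 4 libraries follow the order A549 adherent, A549 spheroid, labelled H1993 adherent, H1993 spheroid. The series as a whole concerns triacylglycerol synthesis in adherent and spheroid (cancer stem cell) cultures. A549 is a lung adenocarcinoma line that lacks the CDKN2A and CDKN2B genes, and H1993 is a lung adenocarcinoma line known for extra copies of MET. With 1 library for each line and culture there was no replicate check. The 95% intervals given here cover counting error only and take every read as independent. Reads copied in the amplification step cannot be told from independent molecules, so the intervals may be too narrow even for counting error. In bulk RNA, fewer cells that express a gene and less of its RNA per cell cannot be told apart.

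MET is a receptor tyrosine kinase of epithelial cells. Its ligand HGF is made as an inactive precursor, cleaved by surface and secreted proteases, and binding leads the receptor to recruit adaptors such as GAB1 and GRB2 that carry the signal towards growth and movement. Extra copies of a chromosome segment usually take in the genes on either side of the selected one, so the RNA of neighbouring genes is a common first look at how far such a segment extends. RNA levels also depend on each gene's own promoter and on transcript decay, and they do not count gene copies.

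The neighbours stand close together on the hg38 assembly. MET (ENSG00000105976) occupies chr7:116672390-116798386 on the plus strand, CAV1 ends 111 kb before it and CAPZA2, as deposited, starts 12.7 kb after it. CAV2, as deposited, occupies chr7:116287380-116508541 and ends 16.2 kb before CAV1. Both RefSeq start windows of CAV2 lie near the end of that model, the first at chr7:116499488-116499737. What part the stretch before them has in the CAV2 exon, intron and junction reads was not tested. From the start of TFEC at 115935148 to the end of CFTR at 117715971 the 10 genes span 1781 kb. The 250 bases before 4 of their RefSeq start sites (GRCh38.p14, plus strand, 5′ to 3′) are shown because these genes had among the highest levels in the set or held a motif. MET, CAV2 and CAV1 are given at their first listed start, and TES at its second start, with the letters GGAATG or their reverse complement, the core bound by TEAD factors, in capitals.
MET, chr7:116671946-116672195: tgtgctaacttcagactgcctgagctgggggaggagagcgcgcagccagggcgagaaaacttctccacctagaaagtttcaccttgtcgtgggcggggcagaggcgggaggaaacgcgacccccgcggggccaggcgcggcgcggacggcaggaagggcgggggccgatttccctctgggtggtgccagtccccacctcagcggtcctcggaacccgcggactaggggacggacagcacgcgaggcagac
CAV2, chr7:116499488-116499737: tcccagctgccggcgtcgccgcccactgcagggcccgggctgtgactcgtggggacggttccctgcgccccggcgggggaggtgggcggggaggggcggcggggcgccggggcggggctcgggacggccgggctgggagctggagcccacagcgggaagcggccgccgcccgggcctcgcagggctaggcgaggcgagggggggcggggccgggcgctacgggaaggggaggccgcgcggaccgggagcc
CAV1, chr7:116524759-116525008: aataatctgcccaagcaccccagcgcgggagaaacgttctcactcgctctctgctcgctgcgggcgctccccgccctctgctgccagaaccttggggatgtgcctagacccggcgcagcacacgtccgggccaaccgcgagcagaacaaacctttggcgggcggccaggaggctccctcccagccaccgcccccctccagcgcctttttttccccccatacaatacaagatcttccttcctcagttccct
TES, chr7:116222703-116222952: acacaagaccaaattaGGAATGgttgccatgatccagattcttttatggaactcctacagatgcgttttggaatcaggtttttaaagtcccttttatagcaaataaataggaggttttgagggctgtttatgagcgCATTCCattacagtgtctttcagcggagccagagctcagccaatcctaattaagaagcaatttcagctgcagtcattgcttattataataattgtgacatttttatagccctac

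The MET window had a GC content of 68.4%, the CAV2 window 83.2% and the CAV1 window 63.6%, against 38.4% in the TES window and a median of 58.0% over 35116 RefSeq promoter windows of the same length. TEAD factors are the DNA-binding partners of YAP, which the title of the series names. GGAATG, searched on both strands, occurred in 1 of the 12 windows found for 6 of the genes, the TES window above, at 234 and 114 bases before the start. It occurred in 11.9% of all promoter windows. The AP-1 letters TGANTCA occurred in 1 window, that of ST7 at chr7:116953251-116953500, as TGAATCA 14 bases before the start, and in 6.57% of all windows. A match of letters describes these windows only.

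Each library held between 15331121 and 17681746 reads on exons, and intron reads made up 8.43% to 11.6% of gene reads. Both cell lines expressed epithelial keratins: summed TPM (a level scaled for transcript length and library depth) over 10 lung epithelial markers lay between 3111 and 10203, mostly from KRT8 and KRT18. The surfactant genes SFTPB and SFTPC had at most 2 reads in any library, and 3 endothelial and 5 fibroblast markers summed to at most 16.1 TPM. The 4 blood markers summed to 26.0, 132, 50.1 and 115 TPM, higher in both spheroid libraries and mostly from CD68, and the defining PTPRC had 0, 0, 0 and 45 reads. Their part in the members' levels was not tested. CDKN2A had 0, 0, 75 and 308 reads, and CDKN2B 0, 0, 89 and 371. The library labelled H1993 adherent therefore held RNA of both genes that A549 lacks, while its levels at most genes near MET lay close to those of A549, as described in turn. It is named by its label throughout.

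MET had 4545, 4083, 6549 and 26102 exon reads in the 4 libraries. These were levels of 140, 112, 182 and 869 TPM. One library stood apart: H1993 spheroids were the highest by a wide margin, and the other 3 lay within a narrow range. In H1993 spheroids MET ranked 106 among all genes by TPM, against 918, 1154 and 645 in the other libraries, in that order. Against A549 spheroids the log2 fold in H1993 spheroids was 2.79 (95% interval 2.75 to 2.84), or 6.93-fold, and 629 of the kept genes had a larger one. Against A549 adherent cells it was 2.58 (2.53 to 2.62).

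CAV1, the main coat protein of caveolae, small pits of the plasma membrane, was the most abundant of the set in A549 adherent cells. Its levels were 305, 104, 179 and 231 TPM. So the order differed from that of MET, with H1993 spheroids between the A549 cultures. Its neighbour CAV2, which joins CAV1 in the caveola coat, had 103, 55.8, 59.7 and 424 TPM across the libraries. For CAV2 the H1993 spheroids were again the highest, and the A549 spheroids and the library labelled H1993 adherent were nearly level.

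TES encodes testin, a LIM-domain protein of focal adhesions and actin fibres. It had 967, 763, 497 and 4917 exon reads, which are 49.1, 34.4, 22.8 and 269 TPM. The library labelled H1993 adherent was the lowest of the 4 for this gene and its own spheroid counterpart the highest. CAPZA2, a subunit of the protein that caps the fast-growing end of actin filaments, varied less, with 71.4, 62.8, 77.0 and 130 TPM. ST7, a gene proposed to suppress tumour growth, had 9.96, 12.5, 10.2 and 20.4 TPM, also with the highest value in H1993 spheroids.

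The outermost genes were little expressed. CFTR, the chloride channel mutated in cystic fibrosis, had 6, 27, 3 and 32 exon reads, and both spheroid libraries were above both adherent ones. TFEC, a transcription factor of the MITF family, had 4, 1, 0 and 18. WNT2, a secreted signal of the Wnt family, and ASZ1, a germ-cell protein, had 0 exon and 0 intron reads in all 4 libraries, where the floor of 3 reads corresponds to 0.172 to 0.196 CPM (reads scaled to library depth). WNT2 and ASZ1 therefore could not show whether the MET difference extended over them. TFEC, from 1 read to 18, had a log2 fold of 2.83 (1.62 to 9.67) in H1993 spheroids over A549 spheroids. CTTNBP2, which overlaps the end of CFTR on the other strand, had 46, 36, 2 and 6 reads.

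**Figure D1:**
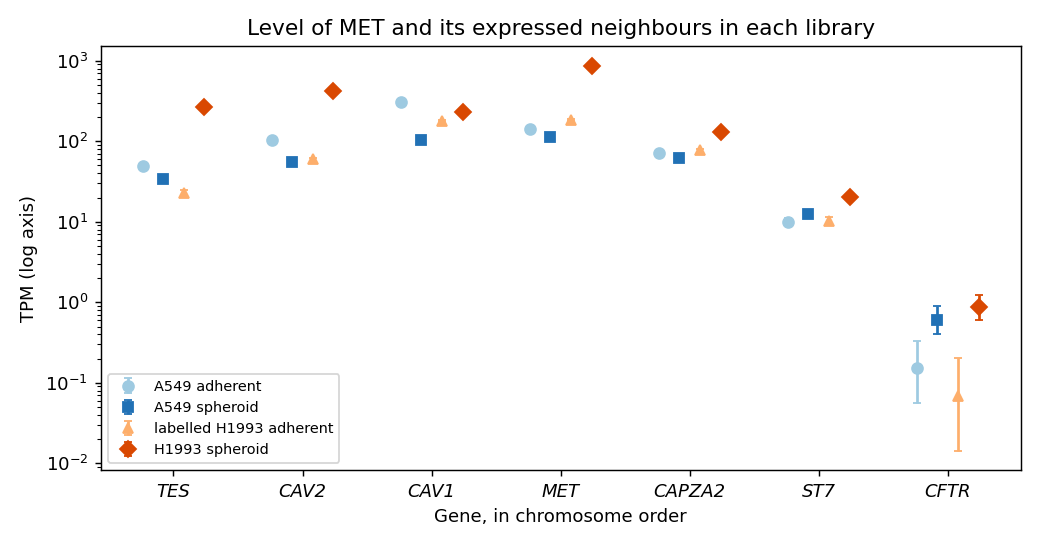
TPM on a log axis for the 7 genes that passed the filter, in chromosome order, with 1 point for each library and bars for the 95% counting interval. H1993 spheroids are the highest library for every gene drawn except CAV1, and for MET they stand at 869 TPM against 112 to 182 in the other libraries.

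Ordered by level per length, MET was first and CAV1 second in both middle libraries (A549 spheroids and labelled H1993 adherent), where they were close (112 and 104 TPM, and 182 and 179 TPM). In H1993 spheroids the order was MET, CAV2, TES, CAV1, CAPZA2 and ST7. ST7 was the lowest of these 6 genes in all 4 libraries.

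In H1993 spheroids against A549 spheroids, the comparison of the 2 lines in the same culture, TES, CAV2 and MET were higher by similar amounts, with log2 folds of 2.80 (2.70 to 2.92), 2.76 (2.69 to 2.83) and 2.79. The genes between and beside them were not: CAV1, which lies between CAV2 and MET, was at 0.98 (0.90 to 1.06), CAPZA2 at 0.88 (0.81 to 0.95) and ST7 at 0.54 (0.36 to 0.73). CFTR was at 0.34 (-0.42 to 1.16). A gene was called when it differed at least 2-fold and its interval excluded no change. By that rule 3 of the 7 kept members were higher and 0 lower, where 18.0% of all kept genes were called higher and 19.1% lower, 37.1% in all. Because the members were chosen on this difference, nothing is read from the count. CAV1 sat just under the limit and was at 1.07 when libraries were scaled by their totals alone.

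When H1993 spheroids were set against A549 adherent cells the same 3 genes were at 2.40 for TES, 1.98 for CAV2 and 2.58 for MET. Here CAV1 was at -0.45, so its direction depended on which A549 culture was the reference. CFTR, from 6 reads to 32, was at 2.15, and with TES, CAV2 and MET it made 4 of 7 members called higher and 0 lower. Of all kept genes 17.9% were called higher and 18.3% lower, 36.2% in all. CFTR was kept by the filter only through the spheroid libraries, which favours a higher call here, and without it 3 of 6 were called higher. CAPZA2 stood at 0.80 and ST7 at 0.97. This comparison shares the H1993 spheroid library with the one before it.

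**Figure D2:**
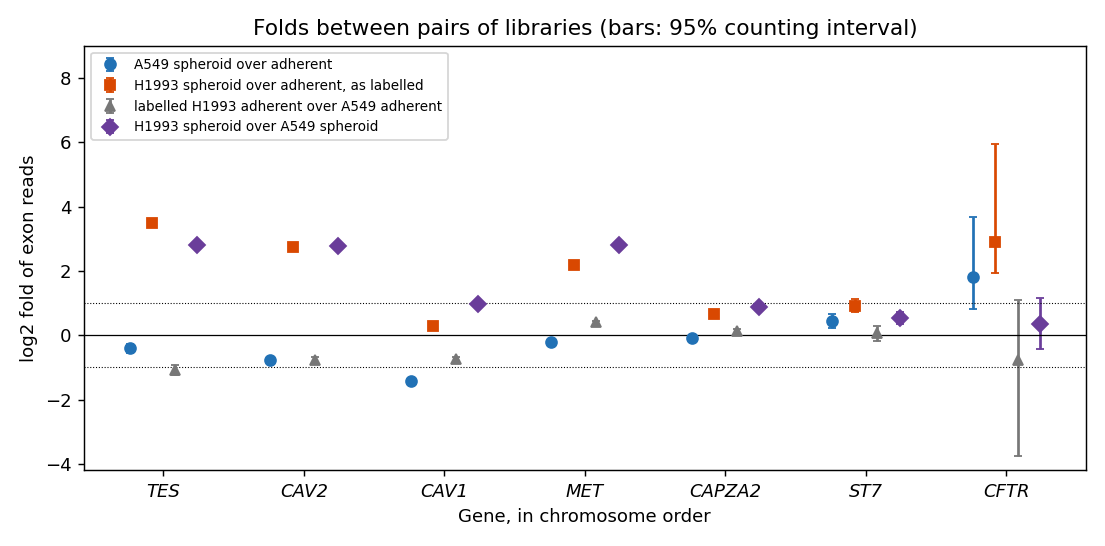
Log2 fold of exon reads for the 7 kept genes in 4 pairs of libraries, with 95% counting intervals and dotted lines at 2-fold. In the pairs that hold H1993 spheroids, TES, CAV2 and MET lie between 2.18 and 3.48, while CAV1, CAPZA2 and ST7 lie between 0.29 and 0.98.

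Intron reads, which come mostly from RNA not yet spliced, gave a different ranking of the neighbours. In H1993 spheroids against A549 spheroids the log2 fold of intron reads was 3.15 (3.0 to 3.32) for MET, from 365 reads to 2995. CAPZA2, whose deposited model starts directly beyond the end of MET, went from 50 to 516 intron reads, a log2 fold of 3.43 (3.06 to 3.93). Its exon reads differed by only 0.88. Its RefSeq start window lies well inside that model, at chr7:116862337-116862586. What part the stretch before that window has in the CAPZA2 intron reads was not tested. The gap of 2.55 between the intron and exon folds of CAPZA2 was larger than that of 99.3% of the genes measured both ways. In H1993 spheroids intron reads were 9.98% of all CAPZA2 reads, against 1.79% to 3.27% in the other libraries.

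CAV1 and ST7 also had larger intron than exon folds, 2.09 (1.70 to 2.58) for CAV1 and 1.61 (1.35 to 1.90) for ST7. TES was alike in both kinds of read, with 3.04 in introns, and CAV2 went the other way, with only 0.99 (0.73 to 1.27). By intron reads 5 of the 7 kept members (TES, CAV1, MET, CAPZA2 and ST7) were called higher and 0 lower, where 29.6% of 14168 genes were called higher and 12.4% lower. These folds stand on a general shift: the median intron fold of those genes was 0.42, and intron reads were a larger share of gene reads in H1993 spheroids (11.6%) than in A549 spheroids (8.43%). With libraries scaled by their own intron totals, an alternative chosen after seeing the data, the intron log2 folds were 3.01 for CAPZA2, 2.72 for MET, 1.67 for CAV1, 1.19 for ST7 and 0.57 for CAV2. What part this general shift has in the members' intron folds was not tested.

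CAV2 stood apart in a second way, noticed only after its values were seen. Reads that span a splice junction made up 6.99%, 6.68% and 5.50% of its exon reads in the first 3 libraries, but 1.96% (1.73 to 2.22, exact binomial interval) in H1993 spheroids. Its junction reads numbered 230, 134, 116 and 246, a log2 fold of 0.98 (0.68 to 1.31) in H1993 spheroids over A549 spheroids beside 2.76 for all exon reads. Among 4533 genes with at least 500 exon reads in both libraries and at least 100 junction reads in A549 spheroids, 0 had a lower ratio of junction shares than the 0.294 of CAV2. Most CAV2 exon reads crossed no junction in any library, but in H1993 spheroids an even smaller share did. Between the spheroids, junction and intron reads of CAV2 differed by about the same amount.

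The junction shares of the other well-read members varied less. MET lay between 24.2% and 24.9% in the 4 libraries, TES between 20.2% and 22.5%, CAV1 between 5.44% and 6.52%, and CAPZA2 between 34.6% and 37.7%. Junction reads alone gave 2.81 (2.71 to 2.91) for MET, 2.90 (2.68 to 3.17) for TES, 1.18 (0.88 to 1.52) for CAV1, 0.84 (0.73 to 0.95) for CAPZA2 and 0.39 (0.14 to 0.64) for ST7 in H1993 spheroids over A549 spheroids. By spliced reads, the interval of CAV2 overlapped that of CAV1 and lay far from those of TES and MET. CFTR had 11 junction reads of 27 exon reads in A549 spheroids and 2 of 32 in H1993 spheroids, a junction log2 fold of -1.63 (-5.56 to -0.15). Antisense transcripts that overlap CAV2 and TES had at most 26 reads, and 99.6% of the CAV2 reads in H1993 spheroids were uniquely placed.

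**Figure D3:**
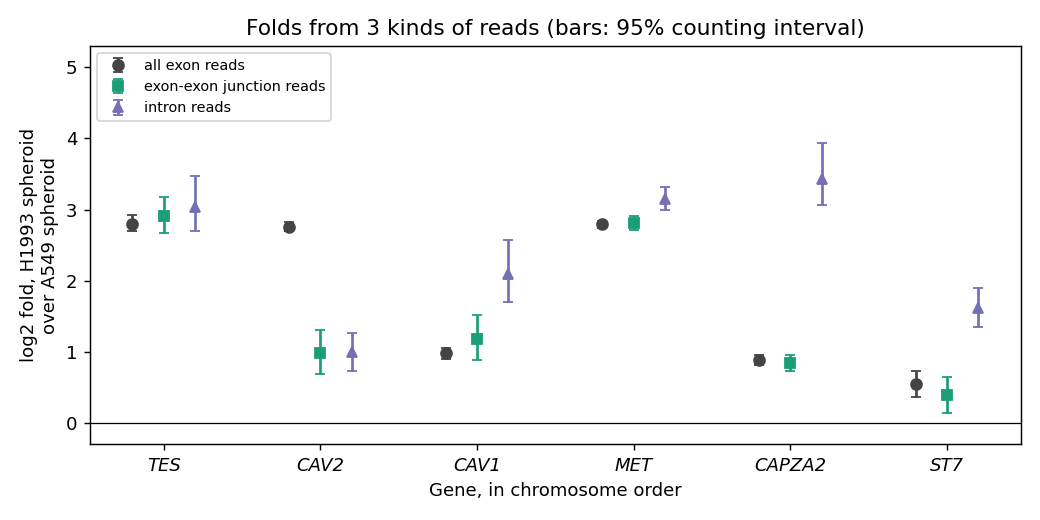
Log2 fold of H1993 spheroids over A549 spheroids from all exon reads, from reads across exon junctions and from intron reads, with 95% counting intervals, for 6 genes in chromosome order. The 3 kinds lie close for TES and MET, intron reads stand above the others for CAPZA2, CAV1 and ST7, and all exon reads stand alone at the top for CAV2.

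To see how far the difference reached, kept genes were placed in order along chromosome 7 and the median log2 fold of 5 neighbouring genes was taken at each, with a run defined as consecutive genes whose running median was at least 1. In H1993 spheroids over A549 spheroids the running median at MET was 0.98, and no run held MET. CAV2 formed a run by itself, from its own fold and those of TES and MET. Against A549 adherent cells the running median at MET was 1.21 and MET alone formed its run, with TES to CAV2 forming another. That 1.21 was the fold of the antisense gene ST7-AS1 itself, from 11 reads to 27 (0.29 to 2.51). Exon reads thus showed no unbroken stretch of higher genes around MET, but the scaling mattered: between the spheroids, the run that held MET had 6 genes with a limit of 1 when libraries were scaled by their totals alone.

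Within 5 Mb of MET there were 22 kept genes. In H1993 spheroids over A549 spheroids 8 of them were called higher and 2 lower, where 18.0% and 19.1% of all kept genes were. The median log2 fold of the 22 was 0.94, and 19 were above 0, while the median of all kept genes was 0.01. The 22 include the kept members, which were chosen on this difference, so nothing is read from the count. On the side towards the centromere, MDFIC, a regulator of transcription 1.75 Mb before MET, was at 0.98, TMEM168 was at 1.83, and BMT2, SMIM30, IFRD1, LSMEM1 and ZNF277 lay between -0.36 and 0.92. DOCK4, at the edge of this window, was lower, at -2.14. Beyond CFTR, CTTNBP2 was lower too, at -2.15, from 36 reads to 6. The antisense genes ST7-AS1 (0.97) and AC002066.1 (0.63) had at most 27 reads in any library.

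Farther out lay a block with a higher running median, up to 4.19, than any at the members. A run of 11 genes from LSM8 to GPR37 (chr7:118184032-124765627) was higher in all 11, where 18.0% of all kept genes were called higher. Its median log2 fold was 3.73, and it began 1.51 Mb beyond the start of MET. AASS, CADPS2 and HYAL4 had passed the filter on low counts only through both H1993 libraries, which favours a higher call in this pair. The highest running median, 4.19, was the fold of CADPS2 itself, from 6 reads to 133. LSM8, an RNA-binding protein of the spliceosome, was the mildest gene of the run with 1.01 (0.87 to 1.15). TSPAN12, a membrane protein that takes part in Norrin signalling, had 14, 16, 247 and 5789 reads, a log2 fold of 8.44 (7.92 to 9.42). ING3, a subunit of a histone acetyltransferase complex, was at 3.73 and the secreted protein gene FAM3C at 2.18. Genes past 5 Mb, named after their values were seen, included WASL, an activator of actin branching, at 3.28 with 1106, 1287, 1874 and 11565 reads, and AASS, an enzyme of lysine breakdown, at 6.05.

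The block ended between GPR37, at 1.45, and the telomere-binding gene POT1, at -0.12 and 8.15 Mb from MET. Between MET and this block, the exon folds of CAPZA2, ST7 and CFTR were under the 2-fold limit, so by this limit no run joined MET to the block. With a limit of 0.5 both fell in 1 run of 27 genes. The filter also set aside genes read in H1993 spheroids almost alone: FOXP2, 2.59 Mb before MET, had 0, 3, 7 and 287 exon reads, and KCND2, 3.60 Mb beyond it, had 0, 0, 9 and 80, which is at least 28.9-fold higher in H1993 than in A549 spheroids against a floor of 3 reads per library. Runs were common elsewhere too. They covered 20.7% of the 736 kept genes of chromosome 7, among them PILRB to ACHE with 25 genes, and 9.73% of the 14759 kept autosomal genes.

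On intron reads, a map added after seeing the data, the genes around MET joined into a longer run. The running median of intron folds at MET was 2.09, and the run that held MET then had 15 genes, where the general shift of 0.42 in intron folds again applies. LSM8, between CFTR and TSPAN12, was at -0.12 in introns from 19 and 16 reads, too few to place.

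**Figure D4:**
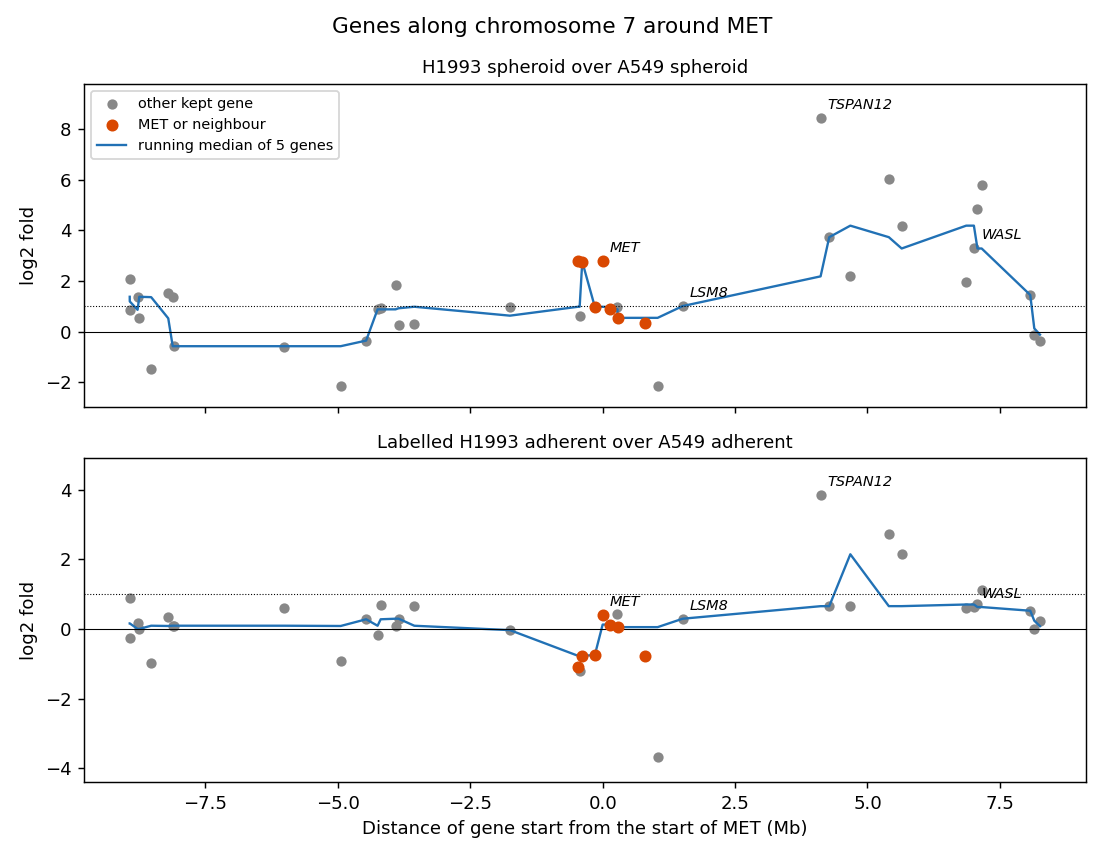
Log2 fold of each kept gene against the distance of its start from that of MET in Mb, with members in orange, the running median of 5 genes as a line and the 2-fold limit dotted, for H1993 over A549 spheroids (top) and for the library labelled H1993 adherent over A549 adherent (bottom). In the top panel TES, CAV2 and MET reach about the same height, and the running median rises to 4.19 in the block from LSM8 to GPR37. In the bottom panel MET is at 0.40 and TSPAN12 is the highest gene.

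The library labelled H1993 adherent did not share the H1993 spheroid levels at MET. Its MET level was 376 CPM, against 286 in A549 adherent cells and 1704 in H1993 spheroids, which places it 6.40% of the way from A549 adherent cells to H1993 spheroids. Over A549 adherent cells its log2 fold was 0.40 (0.34 to 0.45) in exon reads and 0.78 (0.62 to 0.95) in intron reads. The genes before MET were lower than in A549 adherent cells, TES at -1.09 (-1.25 to -0.93), CAV2 at -0.77 and CAV1 at -0.75, and those after it, CAPZA2 and ST7, were at 0.13 and 0.05. Of the 7 kept members 0 were called higher and 1, TES, lower, with 6.94% and 5.49% of all kept genes so called, 12.4% in all.

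As a share of the H1993 spheroid level, the library labelled H1993 adherent had 22.1% for MET, 14.8% for CAV2, 8.90% for TES, 62.6% for CAPZA2 and 81.7% for CAV1. In the distal block it had 3.76% for TSPAN12, 15.6% for ING3, 24.5% for FAM3C and 14.3% for WASL. Of these block genes each lay above its A549 adherent level and far below H1993 spheroids, and TSPAN12, at 3.84 over A549 adherent cells, was called higher. On chromosome 7 as a whole 0.408% of kept genes were in runs for this pair, against 20.7% for the spheroid pair.

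**Figure D5:**
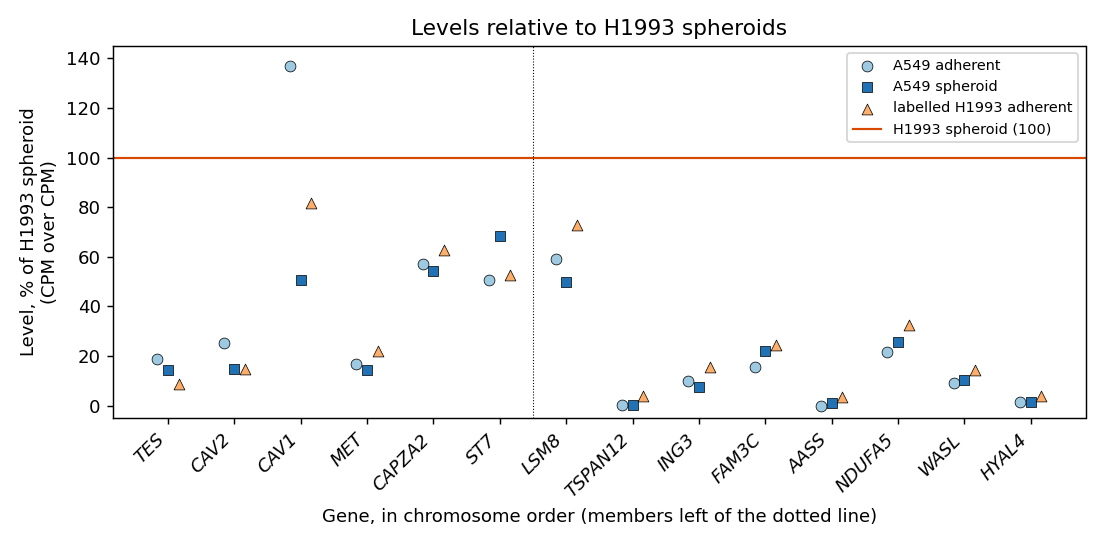
CPM as a percentage of the H1993 spheroid level for 6 members and 8 genes of the distal block, in chromosome order, with 1 point for each of the other 3 libraries and a line at 100 for H1993 spheroids. For MET, TES, CAV2 and the block genes other than LSM8 and NDUFA5 all other points lie far under the line, and for CAV1, CAPZA2, ST7 and LSM8 they are nearer to it.

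Taken by its labels, H1993 had more MET RNA in spheroids, with a log2 fold over the adherent library of 2.18 (2.14 to 2.22). TES was at 3.48 (3.36 to 3.63), CAV2 at 2.75, ST7 at 0.92, CAPZA2 at 0.68 and CAV1 at 0.29 (0.23 to 0.36). CFTR was at 2.91, from only 3 reads in the adherent library, and TFEC was at least 6.81-fold higher against a floor of 3 reads per library. Called higher were 4 of the 7 kept members and 0 lower, with 17.0% and 18.0% of kept genes so called, 35.0% in all. CFTR was among the 4, kept by the filter only through the spheroid libraries, and without it 3 of 6 were called higher. In this pair the culture and the standing of the adherent library near A549 at MET cannot be told apart. No fold of this pair is given as an effect of spheroid growth.

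A549, whose libraries differ by culture, had little difference in MET. The log2 fold of spheroids over adherent cells was -0.22 (-0.28 to -0.16) in exon reads and -0.39 in intron reads, where the median intron fold of all genes was -0.32. CAV1 was the only well-read member past the 2-fold limit, at -1.43 (-1.51 to -1.36), from 5724 reads to 2212, and its intron reads, 193 and 57, gave -1.79. CAV2 followed in the same direction at -0.78, TES at -0.40 and CAPZA2 at -0.08, while ST7 was at 0.43. CFTR was at 1.81 (0.80 to 3.67) from 6 reads to 27. CFTR had passed the filter on low counts only through the 2 spheroid libraries, which favours a higher call in any spheroid library over an adherent one. With it, 1 of the 7 kept members was called higher and 1 lower, where 12.4% and 10.3% of all kept genes were, 22.7% in all, and without it 0 of 6 were higher.

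The 5 kept genes whose profile over the 4 libraries was most like that of MET, by the root mean square difference of centred log2 CPM, were AC084018.2 on chromosome 12 (0.058), PPP1R35 on chromosome 7 (0.062), PER3 on chromosome 1 (0.077), MAPK8IP2 on chromosome 22 (0.083) and MCM3AP-AS1 on chromosome 21 (0.089). A profile of 4 libraries is matched by many genes: the likeness of FAM3C ranked 89 of 15272, WASL 135, ING3 175, CAV2 287, TES 812, CAPZA2 1844, ST7 2347, CAV1 5903 and TSPAN12 14728. No direct neighbour was among the nearest 5, and only PPP1R35 lay on the same chromosome, at 100435282.

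Genes that act with MET were taken from 4 lists chosen with earlier results of these data known. Their counts, and those of the partner lists after them, stand beside 18.0% of all kept genes called higher and 19.1% lower between the spheroids, and 12.4% and 10.3% in A549 spheroids over adherent cells. Of 8 kept genes for HGF and its activation, 3 were higher and 3 lower in H1993 spheroids over A549 spheroids (median 0.17). HGF itself had 16, 118, 48 and 2 reads, and the 2 reads in H1993 spheroids lie under the floor of 3. The ligand was thus lowest where its receptor was highest. The library labelled H1993 adherent, however, was above A549 adherent cells in both HGF and MET. The log2 folds of HGF were 2.68 in A549 spheroids over adherent cells and -4.83 in H1993 over A549 spheroids. Among the proteases that cleave pro-HGF, matriptase (ST14) had 2, 5, 64 and 714 reads and hepsin (HPN) 1, 5, 18 and 685, with folds of 6.79 and 6.73, while urokinase (PLAU) was at -4.71. SPINT1, an inhibitor of these proteases, was higher at 3.11 with 54, 284, 162 and 2273 reads, and SPINT2, a related inhibitor, was at -0.34. ST14 and HPN had passed the filter on low counts only through both H1993 libraries, which favours a higher call between the spheroids. SERPINA5, an inhibitor of HGF activator, was at 3.82 in A549 spheroids over adherent cells. There the list had 4 of 8 higher and 0 lower, beside 12.4% and 10.3% of all kept genes (median 1.32), and PLAT, the tissue plasminogen activator, was its lowest at -1.0.

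Of 15 kept members of the MET family and its surface partners, 4 were higher and 5 lower between the spheroids (median -0.52), beside 18.0% and 19.1% of all kept genes. MST1R, the other receptor of the family, was higher at 1.81 and EGFR, a receptor that signals beside MET, at 1.99. NRP2, a co-receptor, was lower at -4.59 and the kinase AXL at -3.59. In A549 spheroids over adherent cells 5 were higher and 1 lower (median 0.25), led by ITGB4, the integrin subunit that pairs with ITGA6, at 2.84, and ending with NRP2 at -2.27. Of the 4 lists, the adaptors had the fewest calls. Between the spheroids 2 of 15 were higher, GAB1 at 1.86 and SHC1 at 1.05, and 1 was lower, SRC at -4.34 (median 0.19). In A549 spheroids over adherent cells 0 of the 15 were called, from STAT3 at -0.93 to the kinase subunit PIK3CA at 0.42.

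Negative regulators numbered 16, of which 3 were higher and 4 lower between the spheroids (median -0.46). DUSP5, a phosphatase of ERK, was the highest at 2.54 and SH3KBP1, which links the ubiquitin ligase CBL to endocytosis, the lowest at -2.54. CBL, which tags MET for removal, was at 0.40. In A549 spheroids over adherent cells, where 12.4% and 10.3% of all kept genes were called, 7 were higher and 1 lower (median 0.79), among them DUSP6 at 3.54, ERRFI1 at 2.98 and SPRY4 at 1.60, and PTPRJ was lower at -1.15. The median over all kept genes was within 0.01 of 0 in both pairs. DUSP6, SPRY4 and ERRFI1 are known to be induced by ERK or growth factor signalling.

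Partners of the other members gave the setting for CAV1 and CAPZA2. Of 10 kept caveola genes, 1 was higher and 4 lower between the spheroids (median -0.12), beside 18.0% and 19.1% of all kept genes. CAVIN1, needed with CAV1 to form caveolae, had 7284, 2581, 5074 and 614 reads and CAVIN2 499, 135, 104 and 4, with folds of -1.95 and -4.43, so both were lowest in H1993 spheroids, where CAV1 was not. In A549 spheroids over adherent cells 3 were lower and 0 higher (median -0.74), including CAVIN1 at -1.56 and CAVIN2 at -1.93 beside CAV1 at -1.43, and CAVIN3 was the highest at 0.97. PACSIN3, which bends membranes at caveolae, was the one higher between the spheroids, at 1.12. Of 25 kept paralogs and partners of the remaining members, 2 were higher and 11 lower between the spheroids (median -0.45), and 7 higher and 2 lower in A549 (median 0.25). The other capping protein subunits CAPZA1 and CAPZB were at 0.14 and 0.10 between the spheroids, and the ST7 paralog ST7L was at 0.15. Of genes for ion transport, SCNN1A was at 3.58 and ANO1 at -4.62. SLC26A9 had the largest fold of this list in A549 spheroids over adherent cells, 3.40, and SCNN1A the smallest, -2.09.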

How the data were processed

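RNA was measured in 4 libraries from a stranded mRNA kit, per the labels' protocols, 1 for each line and culture. The authors deposited, per library, read counts on exons, on introns and across exon junctions for each gene, with TPM and RPKM values, on hg38, per the file headers and the submitters' processing notes. No label or header names the aligner or the counting program. RPKM as deposited by the authors was not used. The members and gene lists were chosen with earlier results of these data known.

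Genes were kept with filterByExpr of edgeR 4.0.16 (R 4.3.3) with culture as the group, which leaves 15273 of 43622 genes, and libraries were scaled by TMM. CPM is the count scaled by that effective size. With 1 library per line and culture no spread within a group can be estimated, and no quasi-likelihood test was made, also not an additive one of line and culture. Log2 folds used a prior count of 2 with exact 95% intervals of the 2 counts (SciPy 1.17.1), and a call was at least 2-fold with an interval that excludes no change. Intron and junction reads were scaled by the exon sizes. Exon totals were 15331121 to 17681746, and the floor was set at 3 reads in every library, or 0.172 to 0.196 CPM. The calls, intervals and runs were tested on simulated data. Positions are as deposited; 10 of 10 members are in GENCODE 29, 9 with the same start and end. DESeq2 1.42.0 size factors were an alternative. Named genes are the members, kept genes within 5 Mb of MET, the 5 most alike profiles and, per list, the highest and lowest fold in 2 comparisons plus genes whose role is described.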

Additional observations from a re-analysis of the deposited data

Results flagged for a closer look

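For 4 members, spheroid over adherent had the opposite sign in A549 and in H1993 as labelled with both 95% counting intervals excluding no change; the difference between the lines was not tested, since each has 1 library per culture. The log2 folds were -0.40 in A549 and 3.48 in H1993 for TES, -0.78 and 2.75 for CAV2, -1.43 and 0.29 for CAV1, and -0.22 and 2.18 for MET. Each H1993 value rests on the library labelled H1993 adherent. Against A549 adherent cells in its place, H1993 spheroids were at 2.40 for TES, 1.98 for CAV2, -0.45 for CAV1 and 2.58 for MET, so with that reference CAV1 no longer differed in sign from its A549 value.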

How the results depend on the processing

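No paired test was made, since there was only 1 library for each line and culture. An additive fit of line and culture, with 1 residual degree of freedom, was not made. Over 425 alternative values of 81 results, 363 stayed within their interval or count limit and 62 moved; 0 of the 224 alternative values of the member folds changed sign. The cause of each move was not tested. With library size alone, MET was at -0.33 (A549 spheroid over adherent), 2.11 (H1993 as labelled) and 2.88 (between spheroids), the adaptor list had 1 call in A549, and the run holding MET between spheroids had 6 genes. With deposited TPM, MET was at -0.33, 2.25 and 2.96. At 1.5-fold, 5992 genes were called in A549, 8085 in H1993 as labelled and 3532 between adherent libraries, against 3464, 5344 and 1898 at 2-fold. Members called were 3 between adherent libraries and 5 between spheroids. At 2-fold they were 1 and 3, where 12.4% and 37.1% of all kept genes were called. Without the filter on low counts the members called between spheroids were 4, against 3. A looser limit or no filter can only add calls, for members as for all genes, so nothing is read from these member counts.

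The alternatives on intron reads were added after seeing the data. Scaled by intron totals, the MET intron fold was 1.77 in H1993 as labelled and 2.72 between spheroids, against 1.97 and 3.15. On intron reads the running median at MET was 2.09 between spheroids, 1.5 for H1993 spheroids over A549 adherent and 1.42 in H1993 as labelled, and the runs holding MET had 15, 5 and 24 genes; the run holding WASL had 24 in H1993 as labelled. Over 9 genes that median was 0.92 in H1993 as labelled, and the run holding MET had 3 genes against A549 adherent. With at least 100 reads the medians were 0.92 and 0.97, and the latter left a run of 0 genes. With a limit of 0.5 the runs holding MET and WASL were 1 run, of 27, 68 and 21 genes. Low counts limit TFEC, CFTR, WNT2 and ASZ1.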
